A study of Rattus norvegicus with 13 samples.

Results

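The genes described here are 6 that code for proteins of the innate immune defence: Cfb, Lbp, Saa3, Reg3a, Reg3b and Reg3g. They were taken by gene symbol, current or older, from the probes of a rat oligonucleotide array. That gave 7 probes of the 26962 that are not control spots, 1 for each gene except Saa3, which had 2. The 6 genes were picked with the differences between these very arrays in view, so the comparisons with and between the virus groups are given for them as a description. No p-value of a single gene is printed for them. The counts of calls from the fit over all probes, and how they change with the settings, are given without reading anything from them. None of this stands as evidence that the genes respond.

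RNA came from pancreatic islets of male Sprague-Dawley rats that had been given an adenovirus for 18 h and were then kept in culture for 60 h more. The virus AdCMV-Nkx6.1 carried the hamster form of Nkx6.1 (5 arrays), AdCMV-Pdx1 carried the mouse form of Pdx1 (3 arrays), and AdCMV-bGAL carried the enzyme beta-galactosidase as the control (5 arrays). The CMV promoter is active in many cell types, so the transferred genes were not limited to beta cells by their promoter, and islets of every group, the controls too, had received a virus, serum at 10% and glucose at 8 mM. About 200 islets went into each condition, 500 ng of total RNA went into each labelling, and per the labels the arrays of a group are independent islet isolations. Islet RNA was labelled with Cy5 and hybridized with a Cy3-labelled pool of rat RNA, so each value is a log2 ratio of islet over reference RNA and a value of 0 means equal signal in both. In whole islets, fewer cells of a type and less RNA per cell cannot be told apart.

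As background, acute-phase proteins are plasma and tissue proteins whose output changes within hours of infection or injury, mainly under interleukin-1, interleukin-6 and tumour necrosis factor. The liver is their best known source, but epithelia and islets also make several of them. Factor B, the product of Cfb, is the protease of the alternative complement pathway: it binds C3b and becomes part of the enzyme that cleaves more C3. Lbp codes for lipopolysaccharide-binding protein, which carries bacterial lipopolysaccharide to CD14 and the Toll-like receptor TLR4. Saa3 codes for a serum amyloid A protein made largely outside the liver in rodents. Reg3a, Reg3b and Reg3g code for small secreted C-type lectins. They are known from the gut, where Reg3g kills Gram-positive bacteria, and from the pancreas, where Reg3b was described as pancreatitis-associated protein because acinar cells release it in pancreatitis. Nkx6.1 and Pdx1 are homeobox transcription factors of the beta cell.

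The genes lie, in the rat assembly GRCr8, on chromosome 20 at 3975271-3981138 (Cfb), chromosome 3 at 167373786-167400941 (Lbp) and chromosome 1 at 106354986-106358432 (Saa3). The Reg3 genes stand close together on chromosome 4, at 112419776-112423014 (Reg3b), 112430397-112433163 (Reg3a) and 112482183-112484738 (Reg3g). No source used here gives the position of a probe within its gene. The promoters of Saa3 and of the Reg3 genes are printed. The promoter source used here had no entry for Cfb or Lbp, so theirs are not. Each window runs over 250 bases before and 50 bases after the start site in RefSeq's annotation of GRCr8, 5′ to 3′ on the gene's own strand. Capitals mark matches, on either strand, to 3 patterns of letters: TTCNNNGAA (named for STAT factors), TTGCNNAA (named for C/EBP) and TATAAAA (the core promoter box).
Saa3, chr1:106358381-106358680, minus strand: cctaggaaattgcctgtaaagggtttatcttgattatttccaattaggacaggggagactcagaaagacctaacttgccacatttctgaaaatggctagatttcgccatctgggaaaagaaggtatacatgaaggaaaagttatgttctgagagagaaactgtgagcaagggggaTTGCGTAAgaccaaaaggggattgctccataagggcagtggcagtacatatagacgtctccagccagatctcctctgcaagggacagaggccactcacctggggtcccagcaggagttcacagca
Reg3b, chr4:112419526-112419825, plus strand: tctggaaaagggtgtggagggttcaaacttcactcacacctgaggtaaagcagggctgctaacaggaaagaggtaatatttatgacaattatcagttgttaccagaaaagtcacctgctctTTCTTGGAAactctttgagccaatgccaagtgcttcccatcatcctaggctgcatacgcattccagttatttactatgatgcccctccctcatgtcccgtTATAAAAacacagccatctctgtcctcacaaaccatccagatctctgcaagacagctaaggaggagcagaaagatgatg
Reg3a, chr4:112430147-112430446, plus strand: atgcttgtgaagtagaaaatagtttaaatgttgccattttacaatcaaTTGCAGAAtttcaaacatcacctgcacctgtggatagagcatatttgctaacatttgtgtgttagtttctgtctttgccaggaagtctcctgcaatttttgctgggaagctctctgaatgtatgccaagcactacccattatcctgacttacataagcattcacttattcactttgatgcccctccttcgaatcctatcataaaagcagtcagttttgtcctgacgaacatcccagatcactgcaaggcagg
Reg3g, chr4:112484689-112484988, minus strand: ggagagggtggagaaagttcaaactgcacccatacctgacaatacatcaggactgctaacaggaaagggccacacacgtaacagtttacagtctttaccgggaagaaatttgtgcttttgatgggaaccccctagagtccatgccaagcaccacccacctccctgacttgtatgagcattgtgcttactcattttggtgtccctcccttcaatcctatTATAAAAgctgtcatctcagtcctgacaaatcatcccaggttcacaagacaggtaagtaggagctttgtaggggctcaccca
Counted from the start site, the C/EBP letters in the Saa3 window begin at -75 and those in the Reg3a window at -202. The STAT letters of Reg3b begin at -129. The TATA letters begin at -29 in Reg3b and at -32 in Reg3g. Of 27457 rat promoter windows of the same length, 8.68% held the STAT letters, 10.5% the C/EBP letters and 5.85% the TATA letters. The STAT letters read the same on both strands, and none of these matches is known here to be a bound site. In a global alignment the windows of Reg3b and Reg3g were identical at 65.5% of aligned columns, those of Reg3a and Reg3g at 60.2% and those of Reg3a and Reg3b at 57.9%. Windows of Saa3 and of the Reg3 genes gave 49.1% to 51.0%.

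The arrays differed in how many probes had a value, and the groups followed this in part. On Nkx6.1 1 and bGAL 1, 2, 3 and 5, between 35.4% and 61.1% of probes were empty. On the other 8 arrays (Nkx6.1 2 to 5, Pdx1 1 to 3 and bGAL 4) it was 0.23% to 15.5%. These sets were drawn from the data and are not groups of the study. They are called here the arrays with many and with few empty probes. The differences within the arrays with few empty probes are given beside most of the differences named below. Array Nkx6.1 2 also stood apart, with correlations across probes of 0.557 to 0.725 with the other arrays. Beta-cell markers were far above the reference on every array. The mean log2 ratio of the 9 of 15 listed beta-cell markers that had values on all arrays was 4.21 to 5.73 under Nkx6.1, 4.21 to 4.87 under Pdx1 and 4.36 to 4.94 under bGAL. The same mean for macrophage markers (10 of 20 listed) was -1.34 to -1.01 under Nkx6.1, -1.48 to -1.13 under Pdx1 and -1.03 to -0.78 under bGAL. For duct markers (8 of 18) it was 0.99 to 1.86, 1.01 to 1.16 and 1.26 to 1.85 in the same order of groups. For acinar markers (4 of 27) it was -0.83 to 1.78, -0.71 to -0.40 and -0.46 to 0.21, and for fibroblast and endothelial markers (4 of 16) -2.77 to -1.12, -2.65 to -1.28 and -1.95 to -0.52. The macrophage and duct means of all 3 Pdx1 arrays thus lay below those of all 5 bGAL arrays. For single probes, Pdx1 and bGAL values did not overlap for 19.5% of all tested, in either direction. The macrophage median was -1.26 under Nkx6.1, -1.40 under Pdx1 and -0.97 under bGAL. Epcam, Car2, Itgb2 and Mrc1 averaged higher under Pdx1 than under bGAL, and the other genes in these 2 means lower. The duct marker Ambp is also in the acute-phase list used below. A ratio to a reference pool does not show whether a marker is absent.

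**Figure D1:**
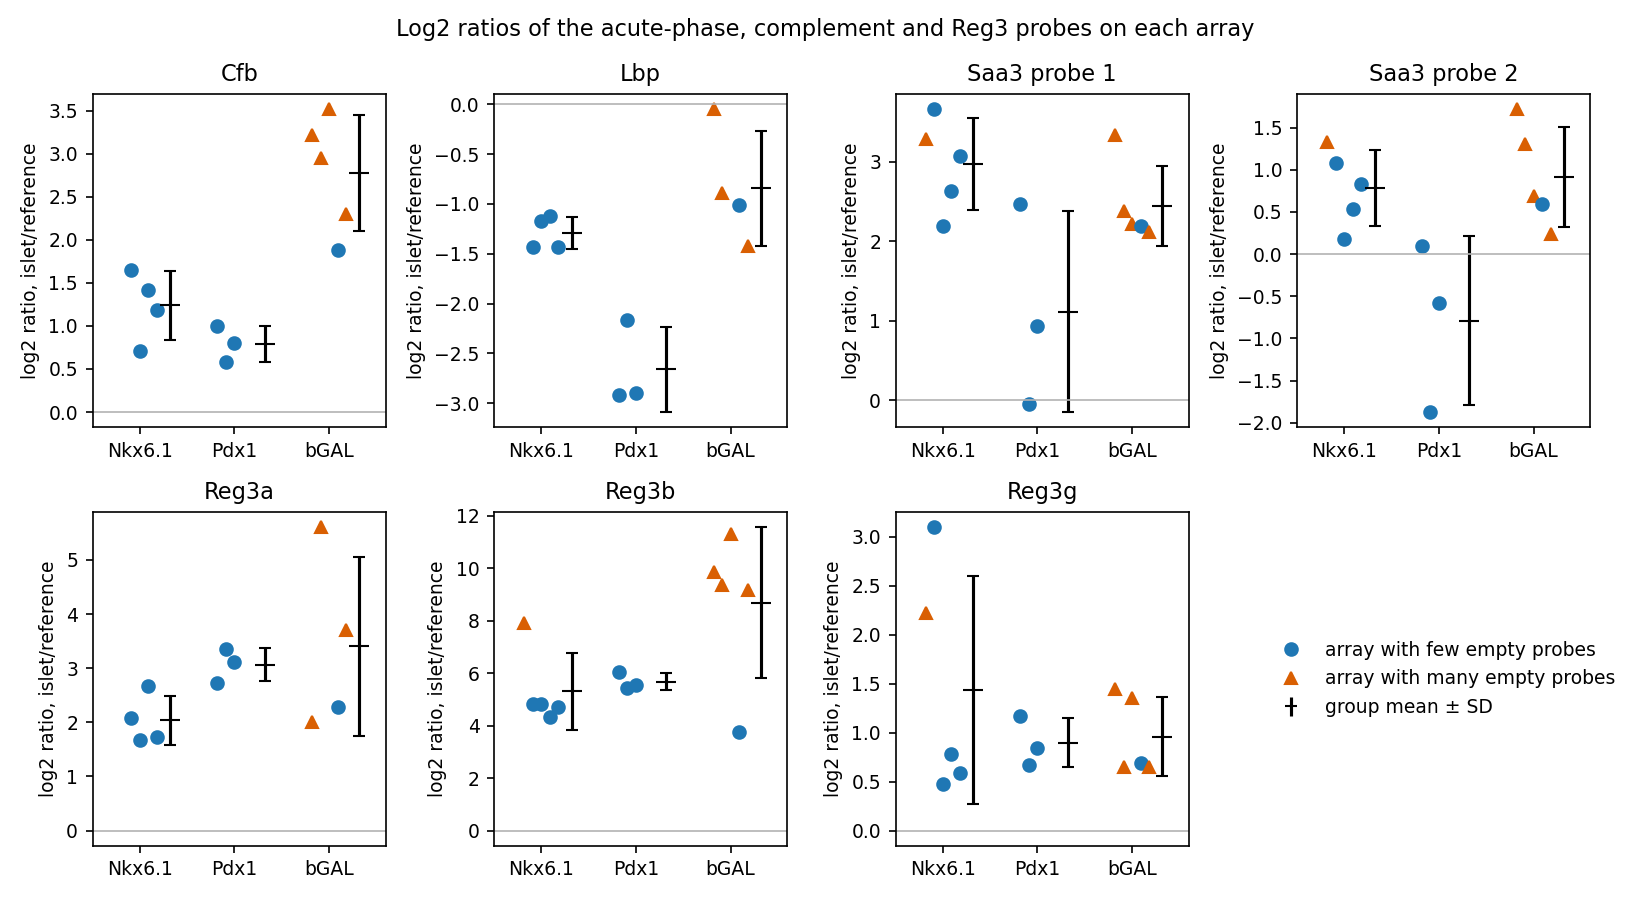
Log2 ratio of islet over reference RNA for each of the 7 probes (vertical axes, each with its own scale) on every array, by virus group. Triangles are arrays with many empty probes, circles arrays with few, and the bars give the group mean and SD; Lbp sits between -2.91 and -2.17 on the 3 Pdx1 arrays, below every other array, and Reg3b lies higher on all triangles (7.89 to 11.3) than on all circles (3.75 to 6.03).

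Factor B RNA was lower relative to the reference under both transcription factors than under the control virus, and the gap was smaller among arrays with few empty probes. Cfb had log2 ratios of 1.64, 0.70, 1.41 and 1.19 on Nkx6.1 2 to 5, with no value on Nkx6.1 1. It had 1.00, 0.58 and 0.80 on the 3 Pdx1 arrays and 3.22, 2.96, 3.52, 1.88 and 2.30 on bGAL 1 to 5. Every control array was above every array of the other 2 groups, and bGAL 4, the control array with few empty probes, was the lowest of the controls. The means were 1.24 ± 0.401 under Nkx6.1 (SD, n = 4), 0.79 ± 0.209 under Pdx1 (n = 3) and 2.77 ± 0.673 under bGAL (n = 5). The fitted difference was -1.54 for Nkx6.1 against bGAL (SE 0.336, 2.90-fold lower) and -1.98 for Pdx1 against bGAL (SE 0.366, 3.95-fold lower). Nkx6.1 exceeded Pdx1 by 0.45 (SE 0.383), with values that overlapped. Among the arrays with few empty probes the differences from the single control array were -0.64 for Nkx6.1 and -1.09 for Pdx1. With quantile normalization, which gives every array the same distribution of values, they were -0.84 and -1.20. The 4 arrays with many empty probes and a Cfb value, all of them controls, averaged 3.00, and the 8 with few averaged 1.15. The part of the empty probes in the Cfb difference was not tested, and no Nkx6.1 or Pdx1 value was at hand among the arrays with many.

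Lipopolysaccharide-binding protein set the Pdx1 arrays apart from both other groups, within the arrays with few empty probes as well. Lbp had log2 ratios of -1.44, -1.18, -1.13 and -1.43 on Nkx6.1 2 to 5, with no value on Nkx6.1 1. On the Pdx1 arrays it had -2.91, -2.17 and -2.90, and on bGAL 1, 2, 4 and 5 it had -0.04, -0.89, -1.01 and -1.42, with no value on bGAL 3. All 3 Pdx1 values were below all others, while those of Nkx6.1 and bGAL overlapped. Group means were -1.29 ± 0.164 under Nkx6.1 (SD, n = 4), -2.66 ± 0.428 under Pdx1 (n = 3) and -0.84 ± 0.579 under bGAL (n = 4). Under Pdx1 the ratio stood lower than under bGAL by 1.82 (difference -1.82, SE 0.333, 3.52-fold) and lower than under Nkx6.1 by 1.37 (Nkx6.1 minus Pdx1 1.37, SE 0.333, 2.58-fold). For Nkx6.1 against bGAL the difference was -0.45 (SE 0.309). Among arrays with few empty probes, Pdx1 differed from the lone control array by -1.65 and Nkx6.1 from Pdx1 by 1.37 (the same 7 arrays as over all). Under quantile normalization the Pdx1 difference from bGAL was -2.34. The macrophage and duct marker means given above also lay lower on the Pdx1 arrays than on the controls. The macrophage median under Nkx6.1 lay below all controls too. The part of these markers in the Lbp difference was not tested.

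Saa3 was lower under Pdx1 on both of its probes, but 1 of the 3 Pdx1 arrays stayed near the level of the others. Probe 1 (Rn30011163) had log2 ratios of 3.29, 3.66, 2.19, 2.63 and 3.07 on Nkx6.1 1 to 5, of 2.46, -0.04 and 0.93 on Pdx1 1 to 3, and of 3.33, 2.37, 2.21, 2.18 and 2.12 on bGAL 1 to 5. Probe 2 (Rn30011165) had 1.33, 1.08, 0.17, 0.54 and 0.83 on the Nkx6.1 arrays, 0.09, -1.87 and -0.58 on the Pdx1 arrays, and 1.73, 1.30, 0.69, 0.60 and 0.24 on the bGAL arrays. Pdx1 2 was the lowest array on both probes and Pdx1 3 the next lowest, whereas Pdx1 1 lay inside the range of the other groups on probe 1 and just below it on probe 2. Against bGAL, Pdx1 differed by -1.33 (SE 0.502, 2.51-fold lower) on probe 1, where the values overlapped, and by -1.70 (SE 0.445, 3.25-fold lower) on probe 2, where they did not. Nkx6.1 minus Pdx1 was 1.85 (SE 0.502) on probe 1, with overlap, and 1.58 (SE 0.445) on probe 2, without. Nkx6.1 against bGAL gave 0.52 (SE 0.434) and -0.12 (SE 0.386), so the probes differed in sign there and both sets of values overlapped. With the arrays of few empty probes alone the Pdx1 differences from the single control array were -1.07 and -1.39, and Nkx6.1 minus Pdx1 was 1.77 and 1.44. Leaving out Pdx1 2, which is the lowest array, moved the Pdx1 difference from bGAL to -0.75 on probe 1 and -1.16 on probe 2, the smallest sizes of any left-out array. Across the 13 arrays the probes moved together, with a Pearson correlation of 0.913 for the log2 ratios and 0.909 for the deviations from group means. These are 2 probes for 1 gene in the same RNA and are not separate evidence.

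**Figure D2:**
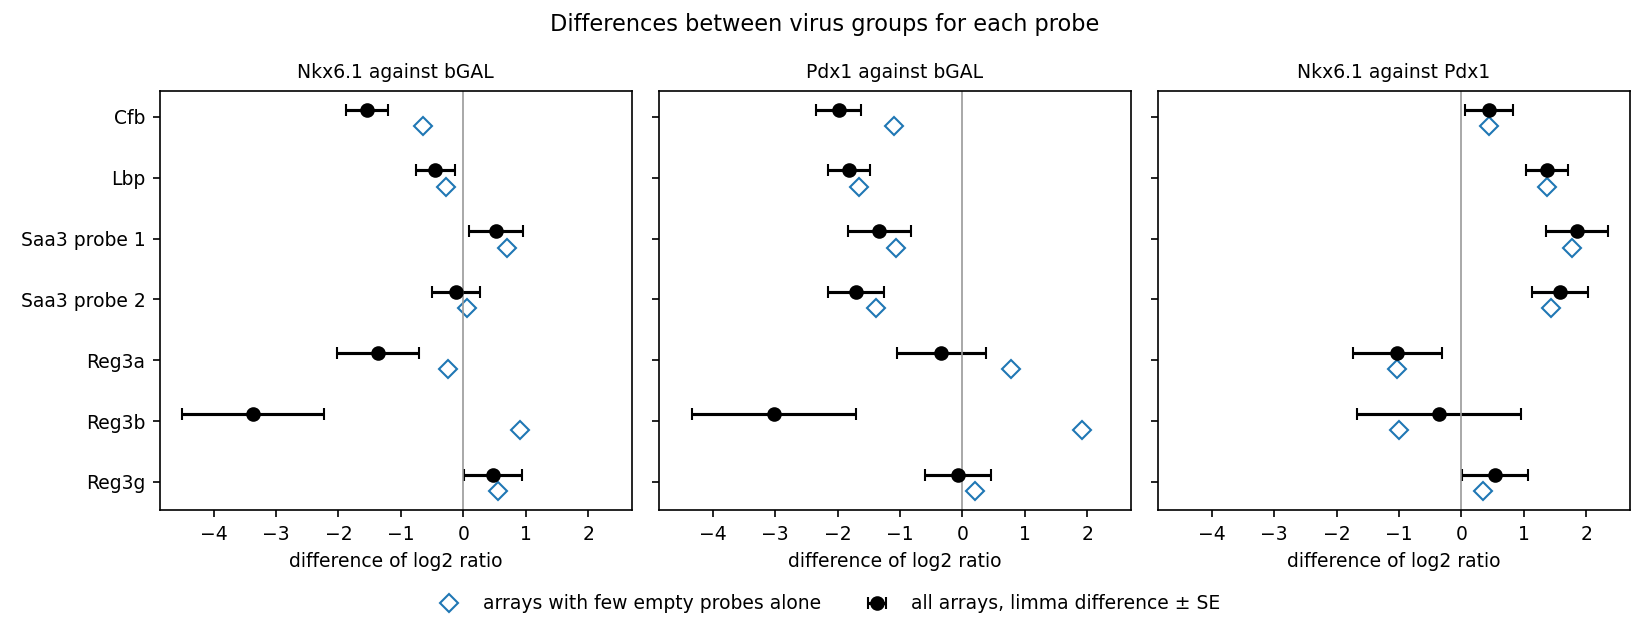
Difference of log2 ratio between groups for each probe (horizontal axes, first-named group minus second). Black points are the fit over all 13 arrays with its SE. Open diamonds are the differences of means of the 8 arrays with few empty probes alone, where bGAL is a single array. The diamonds for Lbp and Saa3 stay close to the black points in all 3 panels. For Lbp in Nkx6.1 against Pdx1, both marks rest on the same arrays. Diamonds of Reg3b lie on the other side of 0 in both comparisons with bGAL (0.90 and 1.91). So do those of Saa3 probe 2 for Nkx6.1 against bGAL (0.06). For Pdx1 against bGAL, those of Reg3a and Reg3g do too (0.78 and 0.21).

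Reg3b was higher on every array with many empty probes than on every array with few. On Nkx6.1 1 to 5 its log2 ratio was 7.89, 4.83, 4.81, 4.31 and 4.69, on Pdx1 1 to 3 it was 6.03, 5.42 and 5.56, and on bGAL 1 to 5 it was 9.85, 9.36, 11.3, 3.75 and 9.15. The 5 arrays with many empty probes, all of them controls except Nkx6.1 1, held the 5 highest values and averaged 9.51. Since the sets go in part with the virus groups, array set and virus cannot be told apart here. The 8 with few empty probes lay at 3.75 to 6.03 and averaged 4.92, a gap of 4.59. Over the 9241 probes with a value on every array, the median gap between the same sets was 0.06, the gaps at percentiles 1 and 99 were -1.52 and 2.43, and 14 probes had a larger one than Reg3b. Group means were 5.31 ± 1.46 under Nkx6.1 (SD, n = 5), 5.67 ± 0.318 under Pdx1 (n = 3) and 8.68 ± 2.88 under bGAL (n = 5). The fit gave -3.38 for Nkx6.1 against bGAL (SE 1.14), -3.02 for Pdx1 against bGAL (SE 1.31) and -0.36 for Nkx6.1 against Pdx1 (SE 1.31), and the values overlapped in each. Within the arrays with few empty probes both differences from the control changed sign, to 0.90 for Nkx6.1 and 1.91 for Pdx1, each against bGAL 4 alone. Within that set the 3 Pdx1 values lay above the 4 Nkx6.1 values, with a difference of -1.01 for Nkx6.1 against Pdx1. Nkx6.1 1, the only array with many empty probes outside the controls, was lower than the 4 control arrays of its set by 2.02 (difference -2.02). With quantile normalization Nkx6.1 against bGAL was -0.64 and Pdx1 against bGAL was 0.48. Against bGAL, no direction of Reg3b under either factor held across the sets and scalings, and what the sets stand for was not tested.

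**Figure D3:**
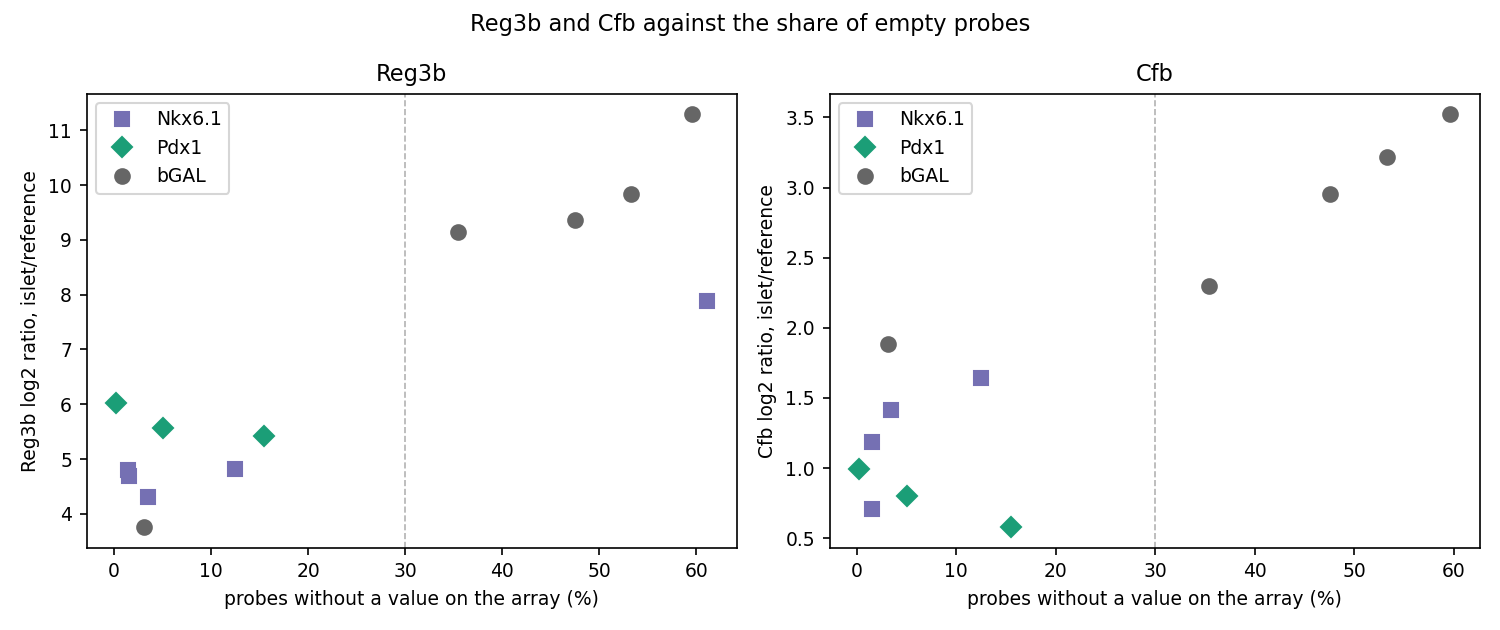
Log2 ratio of Reg3b (left) and Cfb (right) on each array against the percentage of probes without a value on that array; the dashed line marks 30%. All 5 arrays right of the line have Reg3b at 7.89 or more, including 1 of Nkx6.1, and the bGAL array left of the line has the lowest Reg3b value (3.75) and the lowest Cfb value of its group (1.88).

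Reg3a was lower under Nkx6.1 than under Pdx1 and scattered widely among the controls. It had log2 ratios of 2.07, 1.68, 2.67 and 1.73 on Nkx6.1 2 to 5, of 2.73, 3.35 and 3.12 on Pdx1 1 to 3, and of 2.00, 5.60, 2.29 and 3.71 on bGAL 1, 2, 4 and 5, with no value on Nkx6.1 1 and bGAL 3. All Pdx1 values were above all Nkx6.1 values, as they were for Reg3b within the arrays with few empty probes. The control values spanned those of Pdx1, with bGAL 2 the highest of all arrays. Nkx6.1 2 and 4 lay within the control range, and Nkx6.1 3 and 5 lay below every control. The difference was -1.03 for Nkx6.1 against Pdx1 (SE 0.71, 2.04-fold lower), -1.36 for Nkx6.1 against bGAL (SE 0.658) and -0.34 for Pdx1 against bGAL (SE 0.71). Against bGAL 4 alone, the differences were -0.25 for Nkx6.1 and 0.78 for Pdx1. The Pdx1 difference from bGAL also turned its sign without bGAL 2 (0.40) and with quantile normalization (1.05).

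Reg3g, the neighbour of both genes on chromosome 4, showed little difference between the viruses. Its log2 ratios were 2.22, 3.10, 0.48, 0.78 and 0.59 on Nkx6.1 1 to 5, 1.17, 0.67 and 0.85 on Pdx1 1 to 3, and 1.45, 0.65, 1.35, 0.69 and 0.65 on bGAL 1 to 5. Nkx6.1 1 and 2 were the highest arrays. Nkx6.1 4 lay within the control range, and Nkx6.1 3 and 5 lay below every control. Means were 1.43 ± 1.17 under Nkx6.1 (SD, n = 5), 0.89 ± 0.25 under Pdx1 (n = 3) and 0.96 ± 0.405 under bGAL (n = 5). Differences were 0.48 for Nkx6.1 against bGAL (SE 0.458), -0.06 for Pdx1 against bGAL (SE 0.529) and 0.54 for Nkx6.1 against Pdx1 (SE 0.529), all with overlap. Against bGAL 4 alone the differences were 0.55 for Nkx6.1 and 0.21 for Pdx1. Within the arrays with few empty probes, Nkx6.1 against Pdx1 was 0.34. The Pdx1 difference from bGAL thus turned its sign against bGAL 4, and also with quantile normalization (0.39). Without Nkx6.1 2, which stands apart, Nkx6.1 against bGAL was 0.06. The gap between the array sets was 0.22 for Reg3g, against 4.59 for Reg3b.

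All 7 probes had at least 2 values in each group and so entered the limma fit over 17965 probes, with Benjamini-Hochberg adjustment over all of them. The fit called 0.64% of probes for Nkx6.1 against bGAL, 0.546% for Pdx1 against bGAL and 0.217% for Nkx6.1 against Pdx1 at an adjusted p under 0.05. Of the 7 probes, 0 passed for Nkx6.1 against bGAL (2 had an unadjusted p under 0.05), 2 passed for Pdx1 against bGAL (Cfb and Lbp, both lower) and 0 passed for Nkx6.1 against Pdx1 (3 had an unadjusted p under 0.05). Group values did not overlap for 7.73%, 19.5% and 12.1% of all probes in these comparisons, and for 1 (Cfb), 3 (Cfb, Lbp and probe 2 of Saa3) and 3 (Lbp, probe 2 of Saa3 and Reg3a) of the 7. Since the genes were chosen on these contrasts, nothing is read from these counts. The 2 comparisons with bGAL use the same 5 control arrays, so a control array far from the others moves both. The 7 differences had a median of -0.45 for Nkx6.1 against bGAL, -1.70 for Pdx1 against bGAL and 0.54 for Nkx6.1 against Pdx1, beside -0.08, -0.10 and 0.02 over all probes tested. The Pdx1 calls of Cfb and Lbp were lost with the array set as a block, within the arrays with few empty probes and without bGAL 1, 2 or 3, Nkx6.1 4 or 5 or any Pdx1 array (0 calls each), and 1 of them was lost without Nkx6.1 3.

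Across arrays, Cfb and Reg3b were the most alike of the genes in this group, with a Pearson correlation of 0.837 for log2 ratios and 0.751 for deviations from group means over 12 arrays. Reg3b and Reg3g, whose promoter windows share the most letters, gave 0.110 and 0.348 over 13 arrays. Reg3a and Reg3b gave 0.546 and 0.331 over 11 arrays, and Reg3a and Reg3g gave -0.26 and -0.15. For Lbp and probe 1 of Saa3 the values were 0.548 and -0.07 over 11 arrays. These correlations describe arrays that also share a reference RNA and the array sets, and carry no test.

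Among all named probes with a value on every array, those most like each gene were sought by the same 2 measures. Vwa8 was most like Cfb (0.973 for log2 ratios), with Vps13b, Limch1, A1bg and Rnf138l1 next (0.946 to 0.926), and by deviations Abca16 led (0.930). For Lbp, the growth factor gene Vegfd led (0.924), followed by Katna1, Sugp2, Igsf10 and Urb1, and by deviations Ldah (0.946). Saa3 probe 1 went most closely with Oxsm, a mitochondrial fatty acid synthesis enzyme (0.905, and 0.859 for deviations), and with Klrk1. By deviations the third gene for Saa3 was Lcn2 (0.815), lipocalin 2, an acute-phase protein that binds bacterial siderophores. Reg3a went with Dio1, a deiodinase of thyroid hormone (0.892), and by deviations with Kalrn (0.928). Reg3b went with Fez1 (0.953), the activin receptor gene Acvr1c (0.941) and A1bg (0.935), and by deviations with Ovol2 (0.925). Reg3g went with Csn2, a milk casein (0.962 and 0.964), with the galanin gene Gal next (0.917). A1bg was in the list of both Cfb and Reg3b. Each such list was drawn from all such probes over 11 to 13 arrays, with no test of the values, and says nothing of shared function or control.

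Other genes of the same pathways were followed through 6 lists: complement, acute-phase proteins, lipopolysaccharide sensing, interleukin-6 and STAT3 signalling, interleukin-1 and TNF signalling, and relatives of Reg. Over all 17965 probes, 14.4%, 11.9% and 6.85% had an unadjusted p under 0.05 for Nkx6.1 against bGAL, Pdx1 against bGAL and Nkx6.1 against Pdx1. Of 141 listed genes other than the 6, 112 were on the array and 92 were tested. For Nkx6.1 against bGAL 0 passed upward and 1 downward, with 18 (19.6%) at an unadjusted p under 0.05, and 6 (6.52%) had values that did not overlap. For Pdx1 against bGAL 0 passed, 16 (17.4%) had an unadjusted p under 0.05, and 21 (22.8%) did not overlap. For Nkx6.1 against Pdx1 0 passed, 11 (11.96%) had an unadjusted p under 0.05, and 12 (13.04%) did not overlap. The calls, 1.09% of the 92 for Nkx6.1 against bGAL, stand beside 0.64%, 0.546% and 0.217% of all probes in the same order. The shares without overlap stand beside 7.73%, 19.5% and 12.1% of all probes. Shares at an unadjusted p lay above those of all probes in each comparison, with no test of that gap. The median difference over the 92 genes was -0.05 for Nkx6.1 against bGAL, -0.24 for Pdx1 against bGAL and 0.21 for Nkx6.1 against Pdx1. Within the arrays with few empty probes it was 0.00, -0.16 and 0.19.

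The gene that passed was Itih3, which codes for a heavy chain of the inter-alpha-trypsin inhibitor, a plasma protein that binds hyaluronan. It had log2 ratios of -1.12, -1.91, -0.10, 0.33 and -0.03 on Nkx6.1 1 to 5, -0.47, 0.18 and -0.20 on Pdx1 1 to 3, and 0.78, 1.98, 1.89, 2.20 and 2.28 on bGAL 1 to 5. Every control array was above every Nkx6.1 and Pdx1 array. Itih3 fell by 2.39 on the log2 scale under Nkx6.1 (SE 0.419, 5.24-fold, limma adjusted p = 0.0244), lower in 5 of 5 arrays. The difference for Pdx1 against bGAL was -1.99 (SE 0.483) and did not pass (limma adjusted p = 0.117). Its size was much the same within the arrays with few empty probes (-2.62 for Nkx6.1 against bGAL 4), where bGAL 4 was among the highest arrays. The call was lost in 9 of 23 alternative settings, among them the array set as a block (-2.74, limma adjusted p = 0.0987), quantile normalization (-2.10, limma adjusted p = 0.0645) and the fit without bGAL 2, bGAL 3, bGAL 5, Nkx6.1 5 or Pdx1 3 (limma adjusted p up to 0.0698), and over all settings the adjusted p ran over 0.0140 to 0.875.

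No other complement gene passed in any comparison. Of the 23 tested, 17 (73.9%) had a negative difference for Pdx1 against bGAL, as did 57.7% of all probes, with a median of -0.54. Against bGAL 4 alone 18 were negative, as were 51.5% of all probes, and the median was -0.29. For Nkx6.1 against bGAL 15 (65.2%) were negative, as were 56.3% of all probes. The complement median there was -0.19, and -0.09 against bGAL 4 alone. For Nkx6.1 against Pdx1 the complement median was 0.18, and 0.15 within the arrays with few empty probes. C3, the component that factor B binds to, had log2 ratios of 2.34, 3.65, 0.77, 2.05 and 2.03 on the Nkx6.1 arrays, 0.71, 0.56 and 0.76 on the Pdx1 arrays, and 2.55, 1.41, 1.13, 1.33 and 0.32 on the bGAL arrays. The 3 Pdx1 values of C3 were below all Nkx6.1 values and within the control range, and Nkx6.1 minus Pdx1 was 1.49 (limma adjusted p = 0.594), and 1.45 within the arrays with few empty probes. C2, the counterpart of Cfb in the classical pathway and a gene chosen after its values were seen, as C3 was, differed by -2.21 for Nkx6.1 against bGAL (limma adjusted p = 0.175). The array Nkx6.1 2 had the lowest C2 value, -4.86, and without it the difference was -1.47; against bGAL 4 alone it was -2.74. C1qb, part of the first component and expressed by macrophages, differed by -1.22 for Nkx6.1 and -1.39 for Pdx1 (limma adjusted p = 0.190 and 0.218). Against bGAL 4 alone these were -0.34 and -0.51, and C1qb had 2.29 on bGAL 4 and 3.23 to 3.61 on the other control arrays.

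The 25 other acute-phase genes tested had a median of -0.17 for Nkx6.1 against bGAL, -0.49 for Pdx1 against bGAL (19 negative) and 0.47 for Nkx6.1 against Pdx1 (20 positive). Within the arrays with few empty probes these medians were 0.08, -0.41 (19 negative) and 0.46. For Pdx1 against bGAL 4 alone, 51.5% of all probes were negative. Over all arrays, 57.7% of all probes were negative for Pdx1 against bGAL and 47.8% for Nkx6.1 against Pdx1, beside 76% and 20% of these genes. Hpx, the haem carrier haemopexin, had the smallest p of these between the factors. Its log2 ratios were 0.59, 1.49, 0.28, 1.07 and 0.05 on the Nkx6.1 arrays, -0.87, -1.15 and -1.06 on the Pdx1 arrays, and 0.88, -0.99, -0.14, 0.04 and -0.75 on the bGAL arrays. All Pdx1 values lay below all Nkx6.1 values, with a difference of 1.72 for Nkx6.1 against Pdx1 (SE 0.414, limma adjusted p = 0.198), and 1.75 within the arrays with few empty probes. Crp and Apcs, which code for the pentraxins C-reactive protein and serum amyloid P and were chosen after their values were seen, also had bGAL 4 as their lowest control array. Crp had log2 ratios of 1.64 to 1.97 on Nkx6.1 2 to 5 and 0.43 to 2.11 on the Pdx1 arrays, against 7.60, 7.37, 1.58 and 3.64 on bGAL 1, 2, 4 and 5. For Apcs the values were 1.26 to 2.01 on Nkx6.1 2 to 5, 1.78 to 2.93 on the Pdx1 arrays, and 6.14, 5.62, 1.73 and 4.53 on bGAL 2 to 5. The bGAL 4 value lay within the Pdx1 range and just below the Nkx6.1 range for Crp, and within the Nkx6.1 range and just below the Pdx1 range for Apcs. Against bGAL 4 alone, Crp differed by 0.21 for Nkx6.1 and -0.29 for Pdx1, in place of -3.26 and -3.76 over all arrays, and Apcs by -0.15 and 0.53, in place of -2.92 and -2.24. Lcn2 averaged 5.41 under Nkx6.1, 4.47 under Pdx1 and 4.61 under bGAL, and its difference between the factors did not pass (0.94, and 0.93 within the arrays with few empty probes; limma adjusted p = 0.728).

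Of the genes that act upstream of these proteins, 0 passed. The 13 tested genes of lipopolysaccharide sensing had medians of -0.04 for both comparisons with bGAL and 0.21 for Nkx6.1 against Pdx1, and of -0.26, -0.16 and 0.17 within the arrays with few empty probes. The receptor genes Tlr6 and Tlr2, chosen after their values were seen, were higher on all Nkx6.1 arrays than on all bGAL arrays without passing. Tlr6 differed by 1.16 (limma adjusted p = 0.0739) and Tlr2 by 1.06 (limma adjusted p = 0.0820), and against bGAL 4 alone by 0.76 and 0.75. In the Pdx1 comparison Irak3, a brake on Toll-like receptor signalling, differed by -2.62 for Pdx1 against bGAL (limma adjusted p = 0.114), and the kinase genes Irak1 and Irak4 by -0.84 and 1.26 (limma adjusted p = 0.123 and 0.154). Against bGAL 4 alone the 3 differences were -1.64, -0.78 and 0.85, and Irak3 was near 0 on bGAL 1 (-0.13) and bGAL 3 (-0.02) but at -2.27, -2.36 and -2.10 on bGAL 2, 4 and 5. Irak4 had 0.40, 0.41 and 0.52 on the 3 Pdx1 arrays, above all Nkx6.1 arrays (-1.81 to -0.34) and all bGAL arrays (-1.50 to -0.41). Its difference for Nkx6.1 against Pdx1 was -1.30, or -1.27 within the arrays with few empty probes, and did not pass (limma adjusted p = 0.253). The 16 tested genes of interleukin-6 and STAT3 signalling had medians of 0.13 for Nkx6.1 against bGAL and -0.18 for Pdx1 against bGAL, and the 14 of interleukin-1 and TNF signalling -0.08 and -0.06. For Nkx6.1 against Pdx1 these lists had medians of 0.12 and -0.11. With bGAL 4 alone as control, the medians were 0.28 and 0.12 for the interleukin-6 list and -0.06 and 0.06 for the interleukin-1 list, so the sign for Pdx1 turned in both. Extl3, reported as a receptor for Reg proteins, was the 1 tested gene of the Reg list and differed by -0.09 and -0.24, and by -0.07 and -0.22 against bGAL 4 alone.

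**Figure D4:**
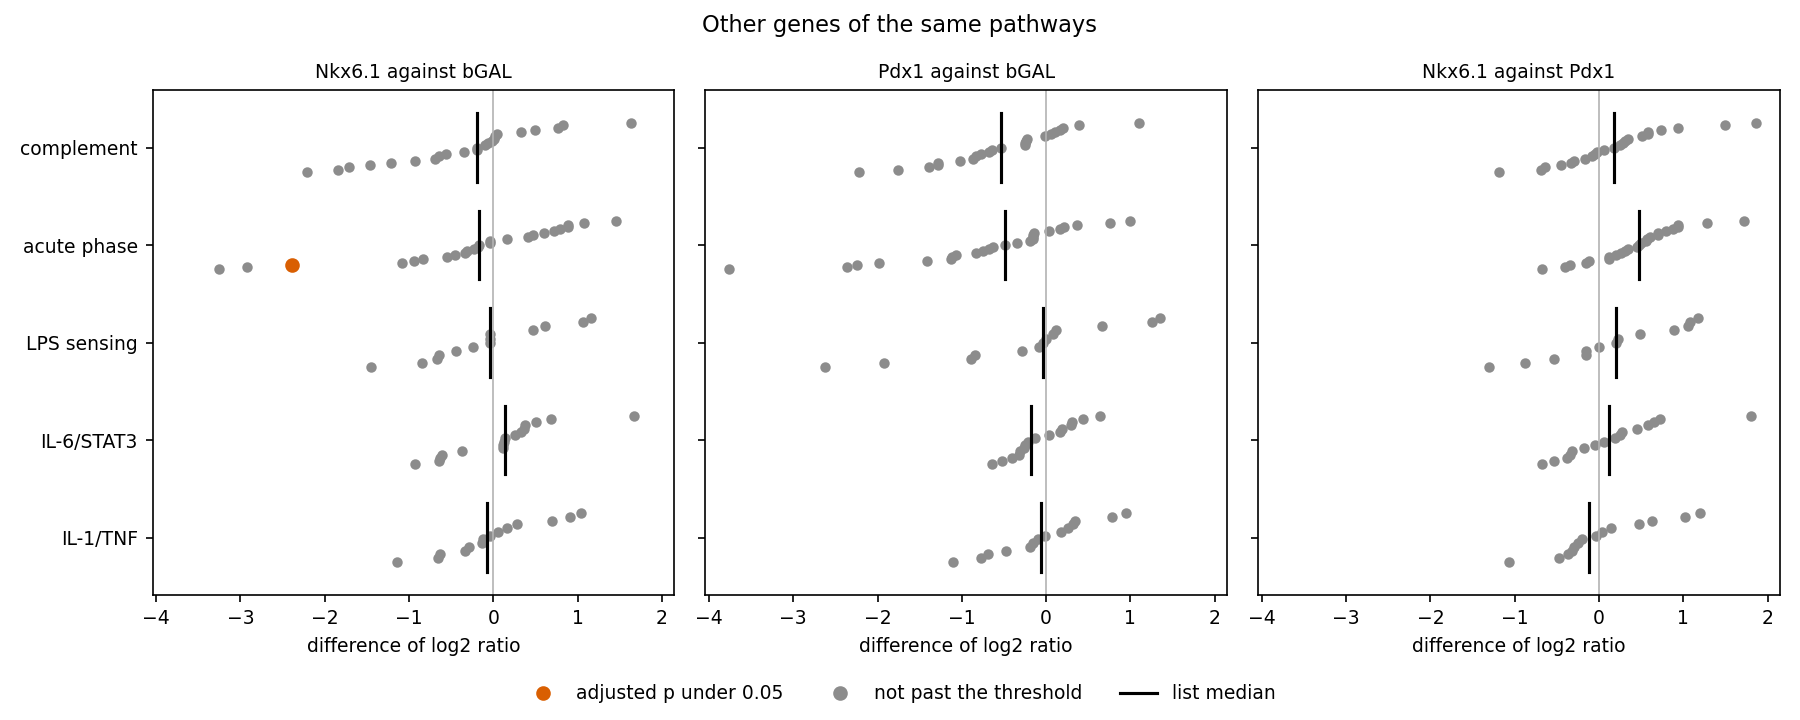
Difference of log2 ratio for each tested gene of 5 pathway lists in the 3 comparisons (horizontal axes, first-named group minus second), with a bar at each list's median. The gene past an adjusted p of 0.05 is Itih3 (-2.39) in the acute-phase list for Nkx6.1 against bGAL, and the complement and acute-phase medians for Pdx1 against bGAL lie at -0.54 and -0.49.

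Among the 57 tested entries of the 5 cell type marker lists 0 passed limma in any comparison, with 10 (17.5%) at an unadjusted p under 0.05 for Nkx6.1 against bGAL, 10 (17.5%) for Pdx1 against bGAL and 5 (8.77%) for Nkx6.1 against Pdx1, beside 14.4%, 11.9% and 6.85% of all probes. The smallest p of these belonged to the duct markers Car2, carbonic anhydrase 2, and Krt18, a keratin of simple epithelia. Car2 had -4.88, -3.43, -3.81, -3.71 and -3.91 on the Nkx6.1 arrays, -2.20, -1.76 and -1.53 on the Pdx1 arrays, and -2.72, -2.01, -1.79, -2.73 and -3.41 on the bGAL arrays. It lay lower on all Nkx6.1 arrays than on all others, with -2.12 against Pdx1 (SE 0.392, limma adjusted p = 0.0513), and -1.89 within the arrays with few empty probes. Krt18 lay the other way, with 1.39 for Nkx6.1 against Pdx1 (SE 0.341, limma adjusted p = 0.224), and 1.43 within that set. Of the 14 macrophage markers tested, 11 (78.6%) had a negative difference for Pdx1 against bGAL (median -0.35), as did 57.7% of all probes. For Nkx6.1 against bGAL 10 (71.4%) did (median -0.37), beside 56.3% of all probes. In each comparison 3 had an unadjusted p under 0.05. Set against bGAL 4 alone, 8 (57.1%) were negative in each, with medians of -0.24 for Nkx6.1 and -0.12 for Pdx1. Of all probes, 51.1% and 51.5% were negative there.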

How the data were processed

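Each value is the log2 ratio of islet (Cy5) over reference (Cy3) signal that the authors deposited per probe and array. The log base was inferred as 2, since a larger base would need ratios beyond a scanner's range. Per the labels' protocols the RNA was amplified in successive rounds and scanned on a GenePix instrument. How background was corrected, how arrays were normalized and why some values are empty is not given in the sources used here. Signal over background is unknown, and precision is limited by how many arrays there are. The table held 26984 probes, 22 of them controls and 0 columns unused. Of the other 26962, 15807 carried 1 symbol, 0 several and 11155 none. Against RefSeq's gene names, 12034 symbols were current, 3713 were updated and 60 were not matched. Promoters came from RefSeq (GRCr8).

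Differences came from limma (version 3.58.1, R 4.3.3). A model of 3 groups over 13 arrays was fitted to each probe that had 2 or more values per group, two-sided and adjusted by Benjamini-Hochberg over 17965 probes at a threshold of 0.05. A probe with an empty value was fitted on the arrays that had one. The fit was tested on simulated data with independent noise, a capped spread per probe and no array sets. In this the simulation was unlike these data, and nothing is read from it here. Promoters were aligned with Biopython 1.88.

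The 6 genes and all lists were chosen with earlier results of these data known. Named are the 6 genes with every probe. From the lists, every gene past the threshold is named for each comparison (up to 8), or the 4 with the smallest p. For likeness, the 5 genes with the highest correlation are taken per gene and measure. C1qb, C2, C3, Tlr2, Tlr6, Crp, Apcs, Extl3 and, beyond its likeness to Saa3, Lcn2 were named after their values were seen. Alternatives were centring, quantile normalization, one spread for all arrays, complete probes only, probes with 1 symbol only, a variance trend with robust fitting, the array set (over 30% empty probes) as a block or its arrays with few empty probes alone, the replicate number as a block, the 2 groups compared alone, and each array left out in turn.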

Additional observations from a re-analysis of the deposited data

Results flagged for a closer look

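Of 14 sets of 4 or 5 values (1 probe in 1 virus group), 3 held an array far from the rest by Dixon's test at the 95% level, where chance gives about 1 in 20. Saa3 probe 1 was at 3.332 on bGAL 1, against 2.118 to 2.374 on the other 4 control arrays. Reg3b was at 7.892 on Nkx6.1 1, against 4.315 to 4.825 on the other 4 Nkx6.1 arrays, and that array is the one of its group with many empty probes. Reg3b was also at 3.755 on bGAL 4, against 9.149 to 11.3 on the other 4 control arrays, and bGAL 4 is the control array with few empty probes. What sets these arrays apart was not tested.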

How the results depend on the processing

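Of the differences recomputed for the 7 probes under the alternatives, 153 of 158 kept their sign for Nkx6.1 against bGAL, 143 of 158 for Pdx1 against bGAL and 157 of 158 for Nkx6.1 against Pdx1. The count of the 7 probes past the threshold for Pdx1 against bGAL, 2 over all arrays, was 1 with quantile normalization and 0 with complete probes only (4 probes, without Cfb and Lbp), a variance trend, the array set as a block, arrays with few empty probes alone, the replicate block or the 2 groups alone, and 0 to 3 with an array left out. It was 0 without bGAL 1, 2 or 3, Nkx6.1 4 or 5 or any Pdx1 array, and 1 without Nkx6.1 3. For Nkx6.1 against bGAL it was 0 to 2, with 2 without bGAL 4. The count of other pathway genes for Nkx6.1 against bGAL, 1 over all arrays, was 0 with quantile normalization, the array set as a block, arrays with few empty probes or the 2 groups alone, 2 of 53 with complete probes only, and 0 to 6 with an array left out (6 without bGAL 4, 3 without Nkx6.1 2, 0 without bGAL 2, 3 or 5, Nkx6.1 5 or Pdx1 3). For Pdx1 against bGAL it was 1 with quantile normalization and with the 2 groups alone, and 0 to 6 with an array left out (6 without Nkx6.1 2, 3 without bGAL 4). For Nkx6.1 against Pdx1 it was 2 with quantile normalization. Signs turned for Saa3 probe 2 for Nkx6.1 against bGAL (0.20 with the array set as a block, 0.0556 with few empty probes, and -0.29 to 0.0802 with an array left out, 0.0802 without bGAL 1 and 0.0307 without Nkx6.1 3) and for Reg3b in that comparison (0.90 with few empty probes). For Pdx1 against bGAL they turned for Reg3a (1.05 with quantile normalization, 0.35 with one spread, 0.78 with the block or few empty probes, -0.80 to 0.40 with an array left out), Reg3b (0.48 with quantile normalization, 0.74 with the array set as a block, 1.91 with few empty probes) and Reg3g (0.39, 0.14, 0.47 and 0.21 with quantile normalization, one spread, the array set as a block and few empty probes, and -0.20 to 0.0611 with an array left out). In these fits with few empty probes the spread of the lone control array was taken from the other groups. Whether the replicate numbers pair the arrays could not be told. Deviations of same-numbered arrays correlated at -0.18 to 0.47 for Nkx6.1 and bGAL and -0.13 to 0.07 for Pdx1 and bGAL. Those of Nkx6.1 and Pdx1 gave -0.24 to -0.01. Of the Nkx6.1 and bGAL pairs, 1 and 4 join arrays of the same set and gave 0.47 and 0.33. Pairs 2, 3 and 5 join arrays of different sets, which could hide a pairing, just as a shared set could look like one. Of the Nkx6.1 and Pdx1 pairs, 2 and 3 join arrays of the same set and gave -0.24 and -0.01. The Pdx1 and bGAL pairs all join arrays of different sets. With the replicate block, Reg3b for Nkx6.1 against Pdx1 was 0.65, Cfb and Lbp for Pdx1 against bGAL were -2.23 and -1.96 without passing, and Itih3 still passed (-2.39, limma adjusted p = 0.0495). Cfb, Lbp and Reg3a had empty values and so gave none with complete probes only. Apart from what the settings themselves change, the cause was not tested.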
